A study of Mus musculus with 32 samples.

Results

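The livers compared here came from 8 male MCAD-KO mice that had free access to food, 4 on a high-fat diet and 4 on a low-fat diet, out of 32 mice in the whole study. The members were taken from the sample labels alone. All 8 mice carried the Acadm knockout on a C57BL/6J background, which removes medium-chain acyl-CoA dehydrogenase (MCAD) from the whole body and not from the liver only. They were kept for 6 weeks on their semisynthetic diet and were fed during the 16 h for which other mice of the study were fasted. The labels give ages, without a unit, of 10, 10, 11.5 and 10.5 for high-fat mice 1 to 4 and of 10.5, 10.5, 10 and 16 for low-fat mice 1 to 4. Fed WT mice are set beside them below, with ages of 9, 11, 10 and 11 (high-fat) and 9, 11, 12 and 11 (low-fat). The fasted MCAD-KO mice used below had ages of 10, 11.5, 11.5 and 15 (high-fat) and 14, 14, 10 and 10.5 (low-fat). Total RNA of freeze-clamped liver was made into 3′ tag libraries, in which a count is a read from near the 3′ end of a transcript, however long the transcript is. In both fed MCAD-KO diet groups, mice 1 and 2 were sequenced on lane 7 and mice 3 and 4 on lane 8.

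Fat in the diet reaches the liver as fatty acids, which are bound in the cytosol by fatty acid binding proteins, activated to acyl-CoA by acyl-CoA synthetases, and then oxidized in mitochondria and peroxisomes or stored as triglyceride in lipid droplets. MCAD catalyses the first step of mitochondrial β-oxidation for medium-chain acyl-CoAs. The nuclear receptor PPAR-alpha is activated by fatty acids and switches on genes of each of these steps, in fasting and in fat feeding alike. The endoplasmic reticulum (ER) of the hepatocyte folds secreted proteins with a set of chaperones whose genes are switched on together by the unfolded protein response.

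Between 2292624 and 3221164 reads were counted on genes in each of the 8 libraries, and 9997 genes had enough counts to be tested. Levels are given in CPM, the counts of a gene relative to the library total after TMM scaling. Acadm (ENSMUSG00000062908) was measured at 15.1, 10.8, 14.2 and 9.29 CPM in high-fat mice 1 to 4 and at 11.8, 22.5, 14.0 and 15.9 CPM in low-fat mice 1 to 4. In the fed WT mice it stood between 191.4 and 349 CPM (scaling over 31 libraries), so that all 8 libraries carried the low level of the knockout label. It did not pass the test for diet (log2 fold change −0.36, edgeR adjusted p = 0.747).

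High-fat mouse 1 stood apart from the other mice in transcripts that mark tissues other than liver. The summed level of 10 acinar pancreas markers was 2754 CPM in this mouse and 23.4 to 39.5 CPM in the other 7, and all 10 markers were highest in it. The sum of 12 skeletal muscle markers was 1920 CPM against 1.01 to 47.7 CPM, with all 12 highest in it. The sum of 10 adipose markers was 220.8 CPM against 30.2 to 100.7 CPM. For 10 adrenal cortex markers the sums lay closer, at 443.1 CPM against 347.4 to 427.8 CPM, but 5 of these markers were at 0 in all of the other 7 mice. The 10 hepatocyte markers summed to 44460 CPM in high-fat mouse 1 and to 47640 to 61400 CPM in the others, and each of them was detected in it.

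**Figure D1:**
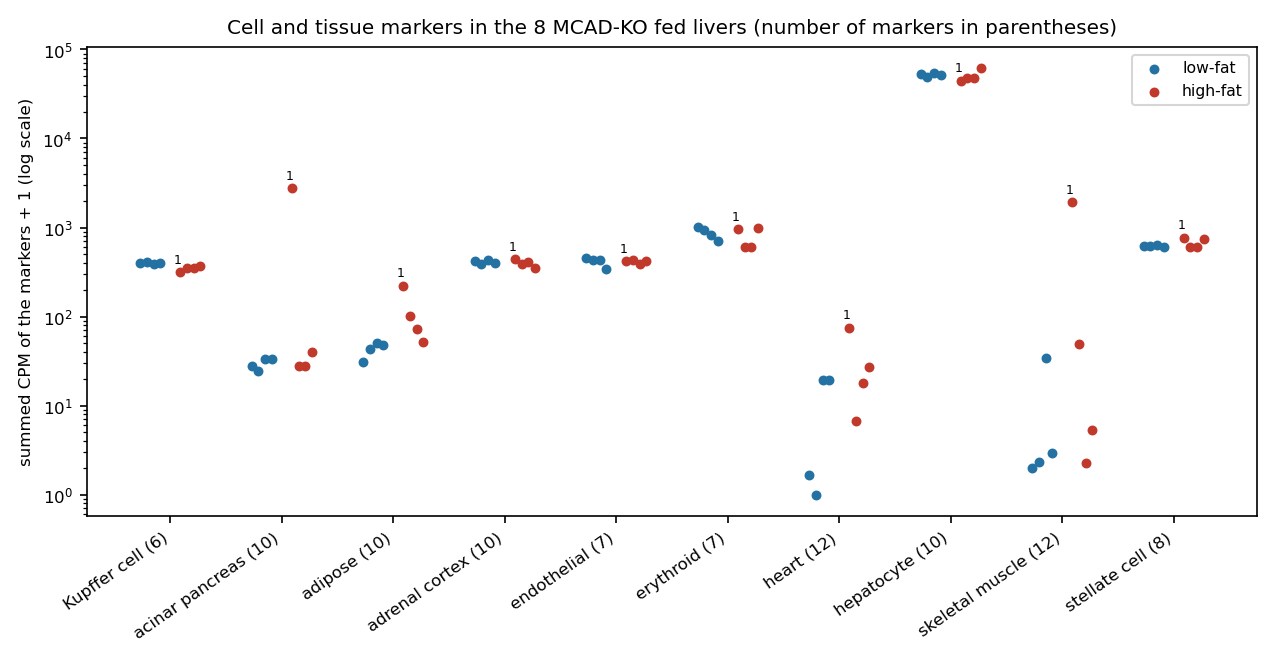
Summed CPM, plus 1, of marker genes for 10 cell types or tissues on a log axis, with 1 point per mouse (blue low-fat, red high-fat, 4 mice per diet) and high-fat mouse 1 labelled 1. High-fat mouse 1 reached 2754 CPM for acinar pancreas and 1920 CPM for skeletal muscle, while the hepatocyte sums of all 8 mice lay between 44460 and 61400 CPM.

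Some marker sums differed between the diets over all mice. The adipose sum was 50.8 to 220.8 CPM in the high-fat and 30.2 to 50.1 CPM in the low-fat mice, and the sum of 6 Kupffer cell markers was 316.7 to 366 CPM against 389.9 to 408.3 CPM, without overlap in either case. The 6 intestine markers summed to 399.9 to 679.3 CPM on the high-fat and 262.7 to 374.7 CPM on the low-fat diet, and only Fabp2 and Apoa4 of them had enough counts to be tested. The 4 other intestine markers were at 0 in high-fat mouse 1 and at no more than 3 counts in each of the other 7 mice. Liver makes Apoa4 too, and Fabp2 is described below. In bulk liver, fewer cells of a type and less RNA per cell cannot be told apart. Each list count with called members is therefore given with and without high-fat mouse 1. The part of these other tissues in single results was not tested beyond that.

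Diet changed 92 of the 9997 genes (0.92%) at an edgeR quasi-likelihood adjusted p below 0.05. Of these, 50 genes (0.5%) were higher and 42 genes (0.42%) were lower on the high-fat diet. The genes with the smallest p among those that rose were the transporter gene Mfsd2a, the fatty aldehyde dehydrogenase gene Aldh3a2 and the peroxisomal thiolase gene Acaa1b. Among those that fell were the fatty acid binding protein gene Fabp5, the kinase gene Pim1 and the ER membrane protein gene Selenos. The rises ranged from 1.465-fold to 4.758-fold with a median of 1.793-fold, and the falls from 1.431-fold to 5.292-fold with a median of 1.848-fold. At least 2-fold differences were found for 18 of the genes that rose and 16 of the genes that fell. In 83 of the 92 genes the 4 high-fat mice did not overlap with the 4 low-fat mice. Over all genes tested, the high-fat mice lay entirely above in 2.74% and entirely below in 3.29%. The median log2 fold change of all tested genes was −0.01.

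How many genes passed depended on single mice. Without high-fat mouse 1, 31 genes passed, and without high-fat mouse 2 or 3, 25 or 15. Without low-fat mouse 1 or 2 the count was 18 or 54. Within lane 7 alone 56 genes passed, and within lane 8 alone, 1. All 92 genes kept their direction and an unadjusted p below 0.05 in each of the 8 fits that left out 1 mouse. In those fits 13 genes passed the adjusted threshold every time: Aldh3a2, Acaa1b, Pctp, Abcc3, Fabp2, Mfsd2a, Mgll and Ildr2 were higher, and Pim1, Fabp5, Efna1, Atg16l2 and Irf2bp2 were lower. DESeq2, limma voom and edgeR all called 35 genes, 19 of them higher and 16 lower. The edgeR p-values set the difference between the diets against the spread between these mice, estimated with information shared across genes.

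Mfsd2a (ENSMUSG00000028655, GRCm38 chr4:122946850-122961188) had the smallest p of all genes. It encodes a sodium-dependent transporter of lysophosphatidylcholine, the form in which long polyunsaturated fatty acids enter several tissues. Its CPM was 51.4, 68.4, 82.7 and 51.1 in high-fat mice 1 to 4 and 16.5, 15.9, 22.2 and 20.1 in low-fat mice 1 to 4. Every high-fat mouse lay above every low-fat mouse, and high-fat mouse 3 was highest. This corresponded to a 3.385-fold rise (log2 fold change 1.76, SE 0.20, edgeR adjusted p = 0.0001696). The two-sided exact permutation test gave p = 0.0286, the smallest value that 4 mice against 4 allow.

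Aldh3a2 (ENSMUSG00000010025, chr11:61223417-61267464) encodes the dehydrogenase that turns fatty aldehydes into fatty acids. It was measured at 234.0, 288.4, 318.7 and 280.7 CPM in high-fat mice 1 to 4 and at 106.5, 115.6, 105.9 and 162.1 CPM in low-fat mice 1 to 4. The groups were well apart, and low-fat mouse 4 was the nearest to the high-fat mice. The rise was 2.287-fold (log2 fold change 1.19, SE 0.15, edgeR adjusted p = 0.000338).

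Cd36, a fatty acid translocase of the plasma membrane, was at 43.0, 53.4, 64.7 and 26.6 CPM in high-fat mice 1 to 4 and at 15.4, 15.4, 11.4 and 23.3 CPM in low-fat mice 1 to 4. High-fat mouse 4 was the lowest of its group and stood just above low-fat mouse 4. The difference was 2.84-fold (log2 fold change 1.51, SE 0.26, edgeR adjusted p = 0.00903), and 0.0242 without high-fat mouse 1. Pparg, the gene of the related receptor PPAR-gamma, which drives Cd36 in fat storage, had 9.18, 16.2, 8.05 and 5.31 CPM against 1.68, 6.18, 3.58 and 3.89 CPM and was not called (adjusted p = 0.239).

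Of the fatty acid binding proteins, the intestinal form Fabp2 rose and the epidermal form Fabp5 fell. Fabp2 (ENSMUSG00000023057) was at 248.3, 244.9, 263.9 and 215.4 CPM in high-fat mice 1 to 4 and at 137.4, 146.1, 138.1 and 155.3 CPM in low-fat mice 1 to 4 (1.686-fold, log2 fold change 0.75, SE 0.12, edgeR adjusted p = 0.00374). The mice of a diet were close together and the groups were separate. Fabp5 (ENSMUSG00000027533, chr3:10012548-10016607) was at 4.78, 4.14, 1.86 and 4.98 CPM in high-fat mice 1 to 4 and at 22.2, 13.7, 26.1 and 21.1 CPM in low-fat mice 1 to 4. All high-fat mice had only a few counts of Fabp5, and the nearest low-fat mouse, mouse 2, was still far above them. It was the largest fall of all called genes, 5.292-fold (log2 fold change −2.40, SE 0.34, edgeR adjusted p = 0.00115). Gm6166, a processed pseudogene named after its values were seen, fell by 2.34 on the log2 scale, but it may share reads with its parent gene, so its value is uncertain. The liver form Fabp1, much studied as a PPAR-alpha target, had a mean of 4418 ± 59.8 CPM (SD, n = 4) on the high-fat and 3360 ± 322.6 CPM (SD, n = 4) on the low-fat diet and was not called (log2 fold change 0.40, adjusted p = 0.102).

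Targets of PPAR-alpha were the list with the most called members. Of 36 tested genes, 9 rose (25%, against 0.5% of all genes) and 0 fell, and 21 had an unadjusted p below 0.05 upwards, against 4.79% of all genes. The median log2 fold change of the list was 0.60. Without high-fat mouse 1, 5 members were called, and the median was 0.53. The list average, on the log2 scale relative to the mean of the low-fat mice, was 0.659, 0.628, 0.673 and 0.121 in high-fat mice 1 to 4 and −0.103, 0.155, −0.197 and 0.145 in low-fat mice 1 to 4. High-fat mouse 4 therefore lay within the low-fat range on this average, and without it 14 members were called. The count was 5 without high-fat mouse 2 and 4 without high-fat mouse 3 or low-fat mouse 1. Within lane 7 it was 11, with a median of 0.63, and within lane 8 it was 0, with a median of 0.47.

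The called members of the list covered uptake, activation and peroxisomal oxidation. Acsl1, which joins long-chain fatty acids to coenzyme A, was at 1114, 1008, 1015 and 1113 CPM in high-fat mice 1 to 4 and at 571, 683.7, 768.4 and 778.2 CPM in low-fat mice 1 to 4. All high-fat mice exceeded all low-fat mice (log2 fold change 0.60, SE 0.12, edgeR adjusted p = 0.0221). Acsl1 passed in 3 of the 8 fits that left out 1 mouse. Without high-fat mouse 1 it did not pass, with an edgeR adjusted p of 0.0704.

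Acaa1b (ENSMUSG00000010651, chr9:119148023-119157093), the thiolase of the last step in peroxisomes, was at 1313, 1342, 1354 and 1111 CPM in high-fat mice 1 to 4 and at 717.8, 712.8, 604.2 and 795.7 CPM in low-fat mice 1 to 4. The groups were separate, with high-fat mouse 4 below the 3 others of its diet (1.809-fold, log2 fold change 0.86, SE 0.12, edgeR adjusted p = 0.00114). Its close relative Acaa1a, which is similar enough in sequence that reads may be shared or lost between them, had a log2 fold change of 0.59 and was not called. Vnn1, a pantetheinase that breaks down a precursor of coenzyme A, was at 44.8, 55.5, 51.4 and 18.2 CPM against 7.72, 18.5, 10.7 and 13.9 CPM. High-fat mouse 4 overlapped with low-fat mouse 2, and the exact permutation test gave p = 0.0571 for this gene, although edgeR called it (log2 fold change 1.75, SE 0.33, adjusted p = 0.0254). Vnn1 was named after its values were seen.

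Not every known PPAR-alpha target moved. Cyp4a14 and Cyp4a10, the ω-hydroxylases of fatty acids, varied among mice of the same diet. Cyp4a14 was at 326.6, 826.2, 947.5 and 94.2 CPM in high-fat mice 1 to 4 and at 165.6, 639.6, 78.3 and 73.0 CPM in low-fat mice 1 to 4. High-fat mouse 4 lay among the low-fat mice and low-fat mouse 2 among the high-fat mice (log2 fold change 1.21, SE 1.01, adjusted p = 0.782). Fgf21, the fasting hormone of the liver, and Pdk4, which holds back glucose oxidation, had log2 fold changes of −0.24 and −0.10 with overlapping groups. Cpt1a, the gate of mitochondrial fatty acid entry, was at 248.0, 228.7, 262.0 and 217.7 CPM against 153.2, 201.3, 161.7 and 186.4 CPM. Its groups did not overlap, but it was not called (log2 fold change 0.45, adjusted p = 0.127). These 5 genes were named after their values were seen.

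**Figure D2:**
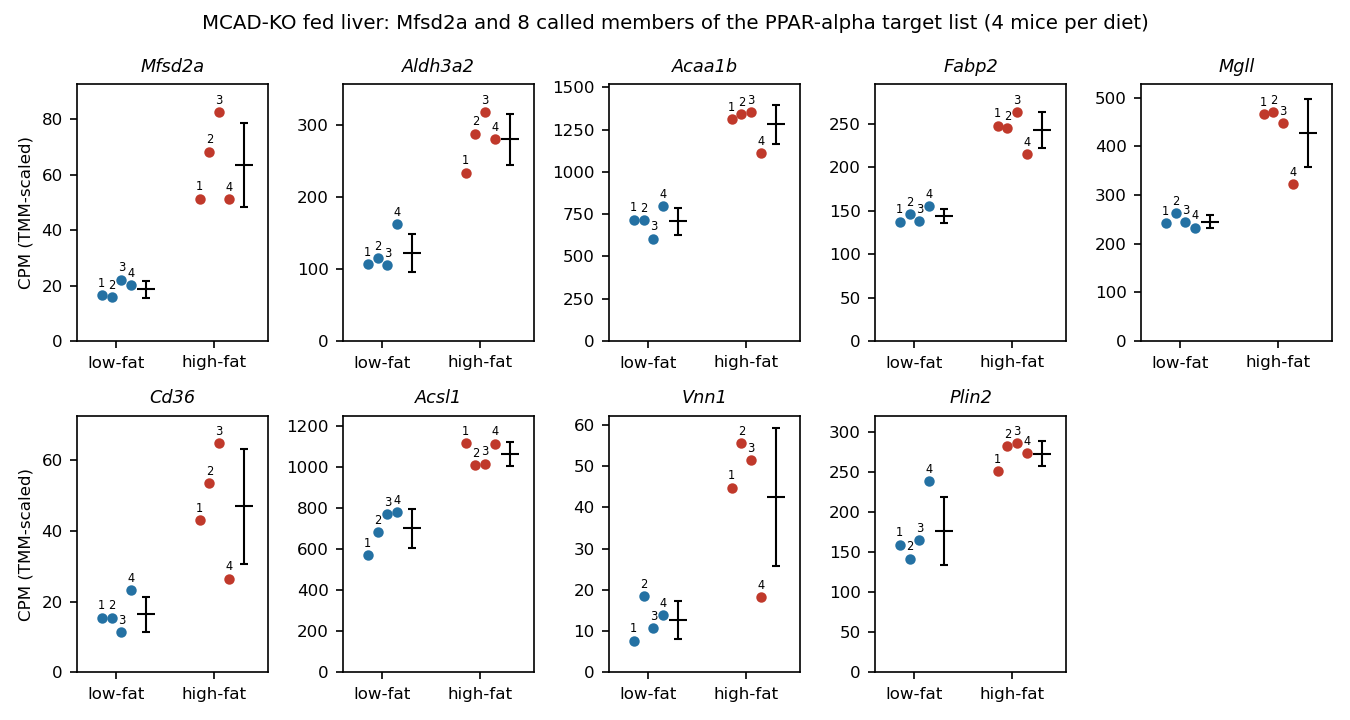
CPM of Mfsd2a and of 8 called members of the PPAR-alpha target list in each mouse (numbered points, blue low-fat, red high-fat, 4 mice per diet), with the mean and SD to the right of the points. High-fat mouse 4 is the lowest of its group for Acaa1b at 1111 CPM, Fabp2 at 215.4 CPM, Mgll at 322.5 CPM, Cd36 at 26.6 CPM and Vnn1 at 18.2 CPM.

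A PPAR-alpha binding site is a direct repeat of AGGTCA with 1 base between (DR1). The 250 bases before the start of each gene were searched on both strands in RefSeq promoters (GRCm38.p6), which held 66 of the 92 called genes. The letters AGGTCA, any base, AGGTCA were found in 0 of 26 genes of the PPAR-alpha target list and in 0.0407% of all 27025 genes. With the looser half-site AGGNCA (N for any base) at both places, which includes the first form, 1 of the 26 genes matched, Fabp1, against 0.4% of all genes, and 0 of the 40 called genes that rose. The 80 bases around this match, at chr6:71199778-71199857 on the + strand, are shown because it was the single match in the list, with the fixed letters of the repeat, here read on the opposite strand, in capitals.
Fabp1: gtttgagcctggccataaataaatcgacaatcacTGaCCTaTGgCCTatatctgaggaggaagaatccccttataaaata

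Peroxisomal β-oxidation had 3 called members of 21, among them Acaa1b and Decr2, all higher (14.3%), and 1 when any 1 of high-fat mice 1 to 3 or low-fat mice 1 and 2 was left out. Acaa1b is counted here as well as among the PPAR-alpha targets and in the coenzyme A set below. The median log2 fold change of the peroxisomal list was 0.21. Decr2, the peroxisomal reductase that lets double bonds of unsaturated fatty acids pass, was at 232.9, 217.1, 241.9 and 246.2 CPM in high-fat mice 1 to 4 and at 163.2, 164.6, 174.6 and 138.4 CPM in low-fat mice 1 to 4. No low-fat mouse reached a high-fat mouse (log2 fold change 0.55, SE 0.12, edgeR adjusted p = 0.0371). Ehhadh, the bifunctional enzyme of the same pathway and also a PPAR-alpha target, had a log2 fold change of −0.12 and overlapping groups. Lonp2, the protease of the peroxisome matrix, rose by 0.59 on the log2 scale (adjusted p = 0.0405); it belongs to no list and was named after its values were seen.

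In mitochondrial β-oxidation, 1 of 23 tested genes rose and 0 fell (4.35%; 0 called without high-fat mouse 1), while 9 had an unadjusted p below 0.05 upwards and 0 downwards. The median of the list was 0.22. The called gene was Eci1, an enoyl-CoA isomerase for unsaturated fatty acids, at 181.9, 167.4, 159.5 and 170.6 CPM in high-fat mice 1 to 4 and at 105.1, 128.4, 94.4 and 121.6 CPM in low-fat mice 1 to 4. The groups did not overlap (log2 fold change 0.60, SE 0.13, edgeR adjusted p = 0.0364). Eci1 passed in 3 of the 8 fits that left out 1 mouse. The dehydrogenases whose substrates border on those of MCAD showed no called change. Acadl, for long chains, had a log2 fold change of 0.23 (SE 0.14), Acadvl, for very long chains, of −0.09 (SE 0.12) and Acads, for short chains, of 0.02 (SE 0.17).

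Thioesterases, which release coenzyme A from acyl-CoA, had 0 called members of 9 and a median of 0.39. Acot1, the cytosolic form, was at a mean of 47.6 ± 9.76 CPM (SD, n = 4) against 30.5 ± 9.83 CPM (SD, n = 4), with a log2 fold change of 0.65 and an adjusted p of 0.244. Acot4, a peroxisomal form, had a log2 fold change of 0.92 (adjusted p = 0.275). Acot3 had too few counts to be tested, at 4.03 ± 1.62 CPM (SD, n = 4) on the high-fat and 0.379 ± 0.508 CPM (SD, n = 4) on the low-fat diet. In the conjugation of acyl groups with glycine and taurine, 0 of 9 genes were called and the median was 0.13. Acnat1 and Gm4952 had the smallest p there, with log2 fold changes of −1.22 and 0.48 and adjusted p of 0.258 and 0.301.

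Lipid droplet genes and PPAR-gamma targets had 3 called members of 18, all higher (16.7%), and 2 without high-fat mouse 1 (1 without high-fat mouse 3 and 5 without high-fat mouse 4). All 18 had a positive log2 fold change, with a median of 0.49. Mgll and Cd36 are also called members of the PPAR-alpha target list, so the counts of these lists overlap. Mgll, monoacylglycerol lipase, was at 465.8, 470.3, 447.0 and 322.5 CPM in high-fat mice 1 to 4 and at 241.8, 262.6, 244.0 and 232.8 CPM in low-fat mice 1 to 4. Only high-fat mouse 4 departed from its group, and it still lay above all low-fat mice (log2 fold change 0.80, SE 0.13, edgeR adjusted p = 0.00439). Plin2, the coat protein of hepatic lipid droplets, was at 250.9, 282.2, 285.6 and 273.1 CPM against 159.5, 142.1, 165.3 and 238.6 CPM. Low-fat mouse 4 was the closest to the high-fat mice (log2 fold change 0.63, SE 0.15, edgeR adjusted p = 0.0405), and the call was lost without high-fat mouse 1 (adjusted p = 0.0792). Plin2 passed in 2 of the 8 fits that left out 1 mouse.

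Several droplet genes that were not called are also made by adipocytes, and the highest values of Plin4, Fabp4 and Cidec were in high-fat mouse 1, which had the highest adipose sum. Plin4, a perilipin of adipocytes, was at 23.5, 13.3, 13.9 and 5.31 CPM in high-fat mice 1 to 4 and at 0.672, 5.74, 1.07 and 5.51 CPM in low-fat mice 1 to 4 (log2 fold change 2.12, adjusted p = 0.119). Fabp4, the adipocyte binding protein, was at 120.1 CPM in high-fat mouse 1 and at 28.5 to 40.2 CPM in the 3 others of its diet. It is itself an adipose marker, so its level is part of the adipose sum and not a separate sign of it. Cidec, which makes droplets fuse, was too low to be tested, with 11.4, 7.04, 6.50 and 0.996 CPM against 0.336, 0, 1.07 and 0 CPM. High-fat mice 1 to 3 lay above all low-fat mice for Cidec, and high-fat mouse 4 did not. G0s2, an inhibitor of triglyceride lipase, was at 240.6, 323.2, 246.6 and 293.0 CPM against 65.2, 157.1, 147.0 and 182.5 CPM, without overlap but not called (adjusted p = 0.197). Plin4 is the member after the called ones by p, and Fabp4 was named as an adipose marker. Cidec and G0s2 were named after their values were seen.

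Fatty acid synthesis genes were the counterpart of these lists in sign. In de novo lipogenesis 0 of 19 genes were called, 18 had a negative log2 fold change, and the median was −0.29. Srebf1, which encodes the master regulator SREBP-1c, had a log2 fold change of −0.52 (166.1 ± 37.2 against 237.9 ± 42.4 CPM, SD, n = 4, adjusted p = 0.201). Fasn, the fatty acid synthase, was at 311.5, 798.4, 745.2 and 862.1 CPM in high-fat mice 1 to 4 and at 1021, 675.3, 1537 and 1929 CPM in low-fat mice 1 to 4. Low-fat mouse 2 lay among the high-fat mice, and the spread within a diet was too wide for a call (log2 fold change −0.93, SE 0.44, adjusted p = 0.59). Acacb, which makes the malonyl-CoA that holds back fatty acid entry into mitochondria, had −0.54 (adjusted p = 0.446). Desaturases and elongases had 0 called of 10 with a median of −0.07, and Elovl3 and Fads1 had the smallest p, with log2 fold changes of −0.62 and 0.31. In cholesterol synthesis and uptake, 0 of 25 genes were called and the median was −0.07. In triglyceride synthesis and VLDL export, 0 of 22 were called and the median was 0.05, with 0.34 for Apob, the structural protein of VLDL (adjusted p = 0.321).

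**Figure D3:**
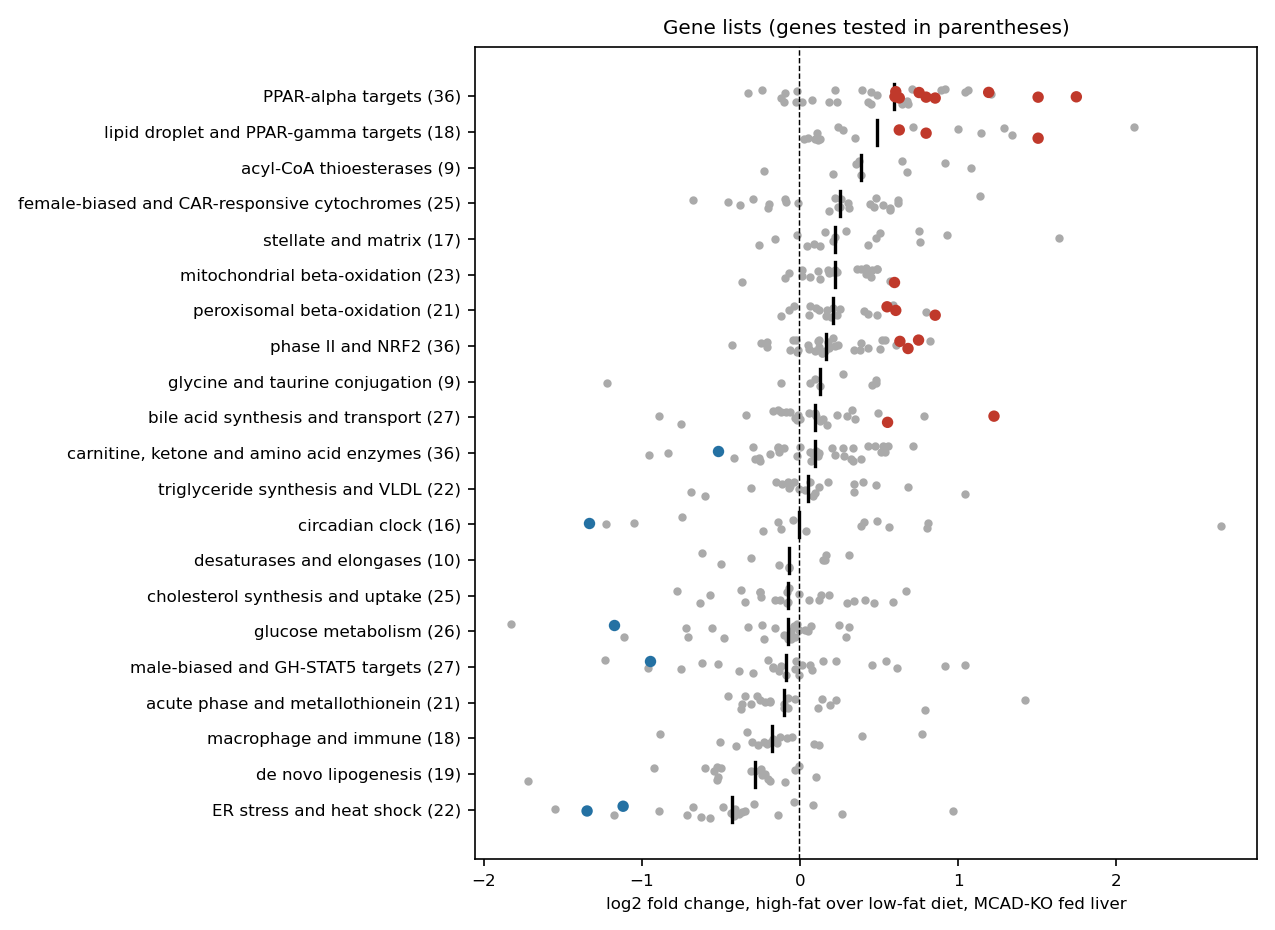
Log2 fold change, high-fat over low-fat, of the tested genes of 21 lists, with 1 point per gene (red called higher, blue called lower, grey not called) and a black bar at the list median. The medians run from 0.60 for PPAR-alpha targets to −0.43 for ER stress and heat shock, beside −0.01 for all genes.

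The list of ER stress and heat shock genes, called the ER list here, had the lowest median of the 21 functional lists, at −0.43. Of 22 tested genes 2 fell and 0 rose (9.09%, against 0.42% of all genes lower), 13 had an unadjusted p below 0.05 downwards against 5.07% of all genes, and 19 had a negative log2 fold change. Sdf2l1, part of a chaperone complex in the ER lumen, was at 19.1, 23.6, 21.4 and 30.2 CPM in high-fat mice 1 to 4 and at 83.3, 65.3, 26.1 and 65.5 CPM in low-fat mice 1 to 4. Low-fat mouse 3 lay within the high-fat range, and the other 3 low-fat mice lay well above it. The fall was 2.544-fold (log2 fold change −1.35, SE 0.28, edgeR adjusted p = 0.0405), with an exact permutation p of 0.0571. Dnajb9, a co-chaperone that restrains the stress sensor IRE1, was at 42.6, 39.0, 53.3 and 37.2 CPM against 107.5, 94.9, 47.6 and 124.2 CPM. Again low-fat mouse 3 lay within the high-fat range (log2 fold change −1.12, SE 0.24, edgeR adjusted p = 0.0405). Without low-fat mouse 3, 8 members fell, without high-fat mouse 4, 1 fell, and 0 passed when any 1 of the other 6 mice, high-fat mouse 1 among them, was left out. Within lane 7, 5 members fell, with a median of −0.56, and within lane 8, which holds low-fat mouse 3, 0, with a median of −0.31.

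Hspa5, the ER chaperone BiP and the standard gene of the unfolded protein response, was at 1964, 1944, 2358 and 1878 CPM in high-fat mice 1 to 4 and at 4235, 3917, 1824 and 5141 CPM in low-fat mice 1 to 4. Low-fat mouse 3 had the lowest level of all 8 mice, and the 3 other low-fat mice lay above every high-fat mouse. The gene was not called (log2 fold change −0.89, SE 0.28, edgeR adjusted p = 0.306). Manf, a secreted stress factor, followed it with 88.2, 96.5, 140.3 and 115.5 CPM against 226.4, 290.4, 122.7 and 356.3 CPM, and Creld2 with 16.9, 14.5, 20.1 and 24.6 CPM against 53.7, 59.6, 12.2 and 98.2 CPM. Low-fat mouse 3 was again within the high-fat range for Manf, and it was the lowest of all 8 mice for Creld2. The average of the list, relative to the low-fat mean on the log2 scale, was −0.418, −0.438, −0.358 and −0.493 in high-fat mice 1 to 4 and 0.068, 0.239, −0.679 and 0.371 in low-fat mice 1 to 4. The skeletal muscle markers of low-fat mouse 3 summed to 32.9 CPM against 1.01 to 1.95 CPM in the other low-fat mice. In high-fat mice 1 and 2, with list averages of −0.418 and −0.438, they summed to 1920 and 47.7 CPM. The part of muscle RNA in the low ER level of low-fat mouse 3 was not tested.

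Genes outside the list also fell. Selenos, an ER membrane selenoprotein of protein quality control, was at 256.1, 224.6, 235.1 and 209.4 CPM in high-fat mice 1 to 4 and at 382.9, 305.0, 356.6 and 448.7 CPM in low-fat mice 1 to 4, so that the groups were separate, low-fat mouse 3 included (log2 fold change −0.69, SE 0.13, edgeR adjusted p = 0.0155). Gmppb, which supplies mannose for glycosylation, fell by 1.11 on the log2 scale (SE 0.21, adjusted p = 0.0156). The co-chaperone gene Dnajb11 fell by 0.76, the oxidase gene Ero1lb by 1.04, the glucosidase gene Mogs by 0.59, the signal peptidase gene Spcs2 by 0.58, the cargo receptor gene Tmed9 by 0.59 and the ER calcium pump gene Atp2a2 by 0.70. These last 6 were named after their values were seen, and no share of such genes among all that fell was computed. For Dnajb11, Ero1lb and Atp2a2 low-fat mouse 3 lay within the high-fat range, at 107.3, 27.9 and 164.2 CPM, and for Mogs, Spcs2 and Tmed9 the groups did not overlap.

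The stress response element that drives many chaperone genes of this response has the letters CCAAT and CCACG with 9 free bases between them. On both strands, it was found within 250 bases before the start in 6 of 19 genes of the ER list that had a promoter (31.6%). The share was 0.13% of all 27025 genes and 0.182% of the 7693 tested genes that had a promoter. The list is one of stress genes, so its share describes the list and not the effect of the diet. It was found in 0 of 40 called genes that rose and in 0 of 26 that fell. The 6 genes were Hspa5, Hsp90b1, Calr, Pdia6, Dnajc3 and Creld2, all with an unadjusted p below 0.05 downwards and none called. A match is a description of the letters and not of binding. The 80 bases around the first match are shown to let the element be compared between the genes, with its fixed letters in capitals. In Calr and Creld2 it reads on the opposite strand, and Hsp90b1 holds 2 matches. The windows, in GRCm38.p6, are chr2:34771994-34772073 (+) for Hspa5, chr10:86705608-86705687 (−) for Hsp90b1, chr12:17266460-17266539 (+) for Pdia6, chr14:118937796-118937875 (+) for Dnajc3, chr8:84847045-84847124 (−) for Calr and chr15:88819489-88819568 (+) for Creld2.
Hspa5: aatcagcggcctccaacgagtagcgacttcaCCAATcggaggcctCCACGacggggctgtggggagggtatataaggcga
Hsp90b1: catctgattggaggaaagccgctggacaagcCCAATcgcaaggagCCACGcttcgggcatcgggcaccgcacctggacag
Pdia6: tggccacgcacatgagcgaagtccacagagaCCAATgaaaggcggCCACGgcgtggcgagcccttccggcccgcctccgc
Dnajc3: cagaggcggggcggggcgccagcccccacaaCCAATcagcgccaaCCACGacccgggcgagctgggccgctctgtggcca
Calr: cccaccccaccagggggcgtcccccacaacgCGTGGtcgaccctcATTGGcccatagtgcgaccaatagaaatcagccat
Creld2: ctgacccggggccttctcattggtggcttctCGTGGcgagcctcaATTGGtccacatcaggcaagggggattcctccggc

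The genes that hold these elements differed in level and in size of change. Hsp90b1, the ER form of HSP90, was at 785.4, 822.4, 976.9 and 731.4 CPM in high-fat mice 1 to 4 and at 1216, 1154, 948.3 and 1605 CPM in low-fat mice 1 to 4. Low-fat mouse 3 lay below high-fat mouse 3 (log2 fold change −0.57, SE 0.14, edgeR adjusted p = 0.0649). The log2 fold change was −0.44 for Calr, −0.42 for the disulfide isomerase gene Pdia6, −0.37 for Dnajc3 and −1.55 for Creld2. None of these passed the adjusted threshold.

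**Figure D4:**
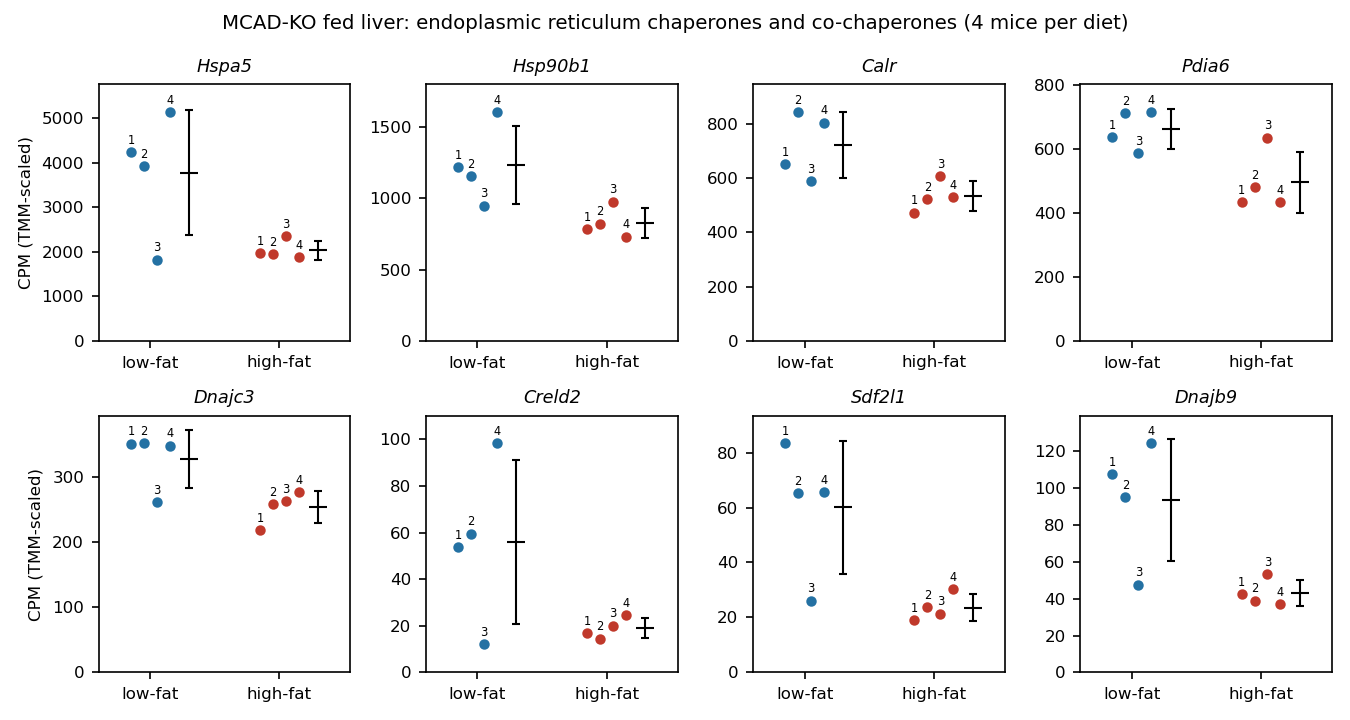
CPM of 8 ER chaperone and co-chaperone genes in each mouse (numbered points, blue low-fat, red high-fat, 4 mice per diet), with the mean and SD to the right of the points. Low-fat mouse 3 sits at the level of the high-fat mice in Hspa5 (1824 CPM), Sdf2l1 (26.1 CPM), Dnajb9 (47.6 CPM) and Creld2 (12.2 CPM), and the other low-fat mice sit above.

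Lists of detoxification and of bile flow had called members that rose. In phase II conjugation and NRF2 targets, 3 of 36 genes rose (8.33%; 1 without high-fat mouse 1 or low-fat mouse 2, and 0 without high-fat mouse 2 or 3 or low-fat mouse 1 or 3), with a median of 0.17. Gstt3 and Gstk1, which are glutathione transferases, had log2 fold changes of 0.68 and 0.63, and the carboxylesterase gene Ces1g had 0.75 (edgeR adjusted p = 0.0379, 0.0389 and 0.0462). In bile acid synthesis and transport, 2 of 27 rose (7.41%; 1 without high-fat mouse 1), with a median of 0.09. Abcc3, which pumps organic anions from the hepatocyte back to the blood, was at 69.4, 53.9, 66.9 and 35.8 CPM in high-fat mice 1 to 4 and at 24.9, 27.4, 21.1 and 23.3 CPM in low-fat mice 1 to 4. High-fat mouse 4 was the lowest of its group and above all low-fat mice (log2 fold change 1.23, SE 0.21, edgeR adjusted p = 0.00498). Abcb4, the phospholipid flippase of bile, had a log2 fold change of 0.55 (adjusted p = 0.0436). Cyp7a1, the rate-limiting enzyme of bile acid synthesis, had 74.9, 19.9, 36.9 and 35.2 CPM against 9.74, 45.0, 6.80 and 36.6 CPM, with overlapping groups.

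Aldh1a1 and Aldh1a7, which encode retinaldehyde dehydrogenases or close relatives of them, also rose. Aldh1a1 was at 1097, 1340, 1491 and 1256 CPM in high-fat mice 1 to 4 and at 558.6, 703.6, 578.4 and 1026 CPM in low-fat mice 1 to 4, and its relative Aldh1a7 at 311.5, 326.5, 401.7 and 279.7 CPM against 191.5, 172.1, 196.0 and 230.2 CPM. For both, all high-fat mice lay above all low-fat mice (log2 fold changes 0.85 and 0.74, edgeR adjusted p = 0.0256 and 0.0108). Aldh1a1 passed in 2 and Aldh1a7 in 6 of the 8 fits that left out 1 mouse. The pair is similar in sequence, so that shared reads may link their values. They belong to the set of genes of enzymes that use NAD(P)(H), of which 5 of 224 rose and 0 fell (2.23%, median 0.05; 4 rose without high-fat mouse 1, and 1 without high-fat mouse 3 or low-fat mouse 1). In the set of genes of coenzyme A metabolism, 2 of 145 rose, Acaa1b and Acsl1, and 1 fell, Acsl3 (2.07%, median 0.04; Acsl1 was lost without high-fat mouse 1). Both sets were made by the study from enzyme functions. Acsl3, an acyl-CoA synthetase of the ER and of growing lipid droplets, was at 35.3, 42.3, 38.4 and 48.1 CPM in high-fat mice 1 to 4 and at 86.7, 58.7, 76.9 and 108.9 CPM in low-fat mice 1 to 4. It thus fell (log2 fold change −1.02, SE 0.18, edgeR adjusted p = 0.00785) where the isoform gene Acsl1 rose, without overlap in either.

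Other genes with the smallest p among those that rose were of varied function. Ildr2, an ER membrane protein tied to hepatic lipid content, was at 35.3, 30.7, 28.2 and 22.2 CPM in high-fat mice 1 to 4 and at 7.05, 10.2, 4.65 and 12.3 CPM in low-fat mice 1 to 4. The groups were clearly apart (log2 fold change 1.76, SE 0.29, edgeR adjusted p = 0.00374). Pctp, a cytosolic carrier of phosphatidylcholine, was at 86.3, 98.6, 101.3 and 93.2 CPM against 57.8, 53.4, 48.3 and 50.3 CPM, with little spread in either group (log2 fold change 0.86, SE 0.14, edgeR adjusted p = 0.00374). Enpp2, which makes lysophosphatidic acid, had a log2 fold change of 0.74 (adjusted p = 0.0155, and 0.0687 without high-fat mouse 1). Enpp2 passed in 5 of the 8 fits that left out 1 mouse. Hectd2os, a transcript antisense to Hectd2, had 0.89 (adjusted p = 0.0108), and since no strand setting of the counting is given in the sources used here, reads of the antisense partner cannot be told apart from its own.

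Among the genes that fell, Irf2bp2, a transcriptional corepressor, had the smallest p. It was at 66.1, 79.6, 71.6 and 56.7 CPM in high-fat mice 1 to 4 and at 142.4, 140.8, 124.8 and 163.4 CPM in low-fat mice 1 to 4, with a wide gap between the groups (2.089-fold, log2 fold change −1.06, SE 0.14, edgeR adjusted p = 0.000659). Efna1, a ligand of Eph receptors, was at 40.8, 35.6, 30.7 and 31.2 CPM against 74.9, 62.7, 72.6 and 86.2 CPM, again without overlap (log2 fold change −1.10, SE 0.16, adjusted p = 0.00163). Atg16l2, a relative of an autophagy gene, fell by 1.34 (adjusted p = 0.00374), and Pim1, a kinase gene induced by cytokines through STAT factors, fell by 0.94 (adjusted p = 0.00737). Kyat1, which forms kynurenic acid, fell by 0.65 and the small nucleolar RNA gene Snord118 by 0.71 (adjusted p = 0.0159 and 0.0196). Whether the 3′ tags counted for Snord118 came from the small nucleolar RNA itself was not tested, so its value is uncertain. Rpl3-ps1 fell by 0.92, but it is a pseudogene that shares reads with its parent gene, so its value is uncertain.

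Other lists held a single called gene each, which fell. In glucose metabolism, 1 of 26 fell and the median was −0.08. It was Ppp1r3c, which directs glycogen synthesis, at 55.1, 133.4, 88.3 and 105.2 CPM in high-fat mice 1 to 4 and at 236.1, 173.5, 237.2 and 214.6 CPM in low-fat mice 1 to 4. High-fat mouse 1 was lowest, and the groups did not overlap (log2 fold change −1.18, SE 0.21, edgeR adjusted p = 0.0197). The call stood without high-fat mouse 1 and was lost without high-fat mouse 3 or 4 or low-fat mouse 1, 3 or 4. Igfbp1, an insulin-repressed gene named after its values were seen, had 61.4, 88.2, 48.9 and 40.2 CPM against 149.5, 182.3, 131.3 and 379.0 CPM, without overlap and not called (log2 fold change −1.83, SE 0.43, adjusted p = 0.189). Among enzymes of carnitine, ketone body and amino acid metabolism, 1 of 36 fell, with a median of 0.09. This was Cps1, the entry enzyme of the urea cycle and one of the hepatocyte markers, at 1435, 1645, 1525 and 1984 CPM against 2178, 2295, 2509 and 2450 CPM (log2 fold change −0.52, adjusted p = 0.0405). Cps1 passed in 1 of the 8 fits that left out 1 mouse, the one without high-fat mouse 4, and its adjusted p was 0.196 without high-fat mouse 1, where 0 members were called. The hepatocyte sums given above did not separate the diets.

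In male-biased genes and targets of growth hormone and STAT5, 1 of 27 fell, with a median of −0.09. The gene, Bcl6, a repressor held down by growth hormone, was at 27.6, 19.1, 24.2 and 21.9 CPM in high-fat mice 1 to 4 and at 34.3, 33.6, 63.3 and 47.7 CPM in low-fat mice 1 to 4, without overlap (log2 fold change −0.95, SE 0.22, edgeR adjusted p = 0.0405). Bcl6 passed in 1 of the 8 fits that left out 1 mouse, and its adjusted p was 0.0738 without high-fat mouse 1, where 0 members were called. The letters TTCNNNGAA of a STAT site, which read the same on both strands, stood before Bcl6, the 1 match among 26 called genes that fell, against 8.13% of all genes. Female-biased and CAR-responsive cytochrome P450 genes had 0 called of 25 and a median of 0.26. Cyp2c29 and Cyp2e1 had log2 fold changes of 0.52 and 0.48 there (adjusted p = 0.0633 and 0.0636).

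Of 16 circadian clock genes 1 fell, Nfil3, a repressor that opposes the D-box activators. It was at 18, 19.5, 22.6 and 35.5 CPM in high-fat mice 1 to 4 and at 64.8, 64.9, 36.1 and 76.8 CPM in low-fat mice 1 to 4. High-fat mouse 4 and low-fat mouse 3 nearly met (log2 fold change −1.34, SE 0.24, edgeR adjusted p = 0.0127). The call stood without high-fat mouse 1 and was lost without high-fat mouse 2 or 3 or low-fat mouse 1. The list held 5 genes with an unadjusted p below 0.05 upwards and 4 downwards, and its median was 0.00. Cry1, which closes the clock loop, was at 9.18, 17.4, 10.2 and 14.3 CPM against 41.3, 22.1, 19.3 and 22.4 CPM, and the D-box activator gene Dbp at 36.4, 8.70, 21.1 and 2.32 CPM against 2.02, 0, 6.08 and 2.27 CPM. The Cry1 groups did not overlap and those of Dbp did, and neither gene was called (log2 fold changes −1.05 and 2.67, adjusted p = 0.0983 and 0.407). Both were named after their values were seen. The paper places the termination of all mice in the same mid-morning hours. The time of single mice within these hours is not given in the labels, so its part in these values was not tested.

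Inflammation and matrix genes had 0 called members. Acute phase and metallothionein genes had 0 of 21 with a median of −0.10, and Mt1, which binds zinc, and Fgg, a fibrinogen chain, had log2 fold changes of 1.42 and −0.37 (adjusted p = 0.0651 and 0.176). Macrophage and immune genes had 0 of 18 with a median of −0.18, and Marco, a scavenger receptor of Kupffer cells, had −0.89 (adjusted p = 0.352). Stellate cell and matrix genes had 0 of 17 with a median of 0.22, with 0.93 and 0.75 for the collagen genes Col1a2 and Col3a1 (adjusted p = 0.221 and 0.275). The average of the matrix list was highest in high-fat mouse 1, at 0.751 against −0.055 to 0.189 in the other high-fat mice.

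The same diets were fed to WT mice, so the size of the diet effect could be set beside that of WT fed liver. The mice differ, but the WT values came from a model of all 4 fed groups, the 8 MCAD-KO mice included. The estimate of spread behind the WT p-values is thus shared with MCAD-KO. In WT, 13 of 10791 genes passed in this model (0.12%). The count of MCAD-KO calls given above came from a fit of the 8 MCAD-KO mice alone and cannot be set beside this number. In the model of the 4 fed groups, 882 genes had an unadjusted p below 0.05 for diet in MCAD-KO and 911 in WT. Of the 50 genes that rose in MCAD-KO, 49 had the same sign in WT and 31 an unadjusted p below 0.05 in the same direction, against 4.32% of all genes with such a p upwards. Of the 42 that fell, 36 had the same sign and 11 such a p, against 4.12% of all genes downwards. Over all 9997 genes the sign agreed in 55.3%. The median log2 fold change in WT was 0.61 for the called genes that rose and −0.25 for those that fell, beside 0.84 and −0.89 in MCAD-KO. These genes were picked by their values in MCAD-KO, which favours larger medians there and not in WT. The smaller WT medians therefore do not show a weaker diet effect in WT. In WT all 4 low-fat mice were on lane 8 and 3 of the 4 high-fat mice on lane 7, so that diet and lane cannot be told apart there for most mice.

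Abcc3 (log2 fold change 1.15), Aldh1a1 (0.99), Gstt3 (1.36), Vnn1 (1.51) and Gstk1 (0.72) also passed in WT as higher, and Fabp5 (−2.59) and Atg16l2 (−1.41) as lower. The other 2 of the 9 genes called in both were the pseudogenes 9030619P08Rik (1.81) and Gm6166 (−3.54), whose values are uncertain for shared reads. For Cd36 and Mfsd2a the WT values were 0.61 and 1.31 and did not pass. Sdf2l1 and Dnajb9 had log2 fold changes of −0.08 and −0.16 in WT, and Hspa5 had 0.10. The ER list had a median of 0.09 in WT.

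The difference of the diet effect between MCAD-KO and WT was tested in a model of the 4 fed groups. It passed for 0 of 10791 genes (0%) with edgeR and 0 with DESeq2, with 520 genes at an unadjusted p below 0.05. Of the ER list 10 of 22 genes had such a p with a lower diet effect in MCAD-KO, against 2.37% of all genes, and 0 had one with a higher diet effect, against 2.45%. This list had the lowest median of the functional lists in the same fed MCAD-KO mice, which this test uses again. A high count for a lower diet effect in MCAD-KO is thus not independent of that median. The genes with the smallest p were Tut4, Ano1, Dennd1b, Fam13a and Anxa1, each with an adjusted p of 0.943. Ano1, a chloride channel gene, had a log2 fold change of 1.51 in MCAD-KO and −1.49 in WT, and Tut4, which adds uridine to RNA, 0.69 and −0.82. The ER counts thus stand as values without a call, and a p that misses the threshold does not show that the diet acted alike in both genotypes.

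The diet effect was also set beside that in MCAD-KO mice fasted for 16 h. Fasted high-fat mouse 4 was left out, because 12 heart markers summed to 30110 CPM in its library, against 0.972 to 14.9 CPM in the other fasted high-fat mice, and 10 hepatocyte markers to 749.2 CPM, against 42080 to 62940 CPM. The test of the difference uses the same fed mice as the comparison above, so it is not independent of it. It passed for 33 of 10934 genes (0.302%), 10 with a diet effect higher in the fed and 23 with one lower in the fed state. With fasted high-fat mouse 4, 0 genes passed. Fasted high-fat mice 1 and 2 and fasted low-fat mice 1 to 3 were on lane 7, and the other fasted MCAD-KO mice on lane 8. Label ages reached 14 in the fasted low-fat mice and 11.5 in the fasted high-fat mice kept. The part of age in these differences was not tested.

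Stard4, a cytosolic sterol carrier, had the smallest p. It was at 118.1 ± 8.60 CPM (SD, n = 4) on the high-fat and 123.8 ± 17.7 CPM (SD, n = 4) on the low-fat diet in the fed state. After fasting it was at 61.6 ± 6.81 CPM (SD, n = 3) and 15.4 ± 2.85 CPM (SD, n = 4). The fed minus fasted difference of the diet effect was −2.05 on the log2 scale (SE 0.25, edgeR adjusted p = 0.000516). Hsd3b5, a male-specific steroid dehydrogenase, had a difference of −4.60 (SE 0.56, adjusted p = 0.00145), from 223.1 ± 61.9 and 274.8 ± 47.8 CPM fed and 109.5 ± 80.3 and 5.497 ± 1.33 CPM fasted, on high-fat and low-fat diet. Nudt7, a peroxisomal hydrolase of coenzyme A, had −1.62 (adjusted p = 0.00816).

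In the other direction, Mat1a, which makes S-adenosylmethionine, had a difference of 1.83 (SE 0.28, adjusted p = 0.00515), and Por, the electron donor of cytochromes P450, one of 1.996 (SE 0.31, adjusted p = 0.00624). Mfsd2a was 1 of 6 genes called in both tests, and its diet effects had opposite signs. It was higher on the high-fat diet in the fed state, by 1.76 on the log2 scale, and its log2 fold change in the fasted state was −1.32 (SE 0.36), at 139.0 ± 94.9 CPM (SD, n = 3) against 346.5 ± 107.4 CPM (SD, n = 4). The difference was 3.09 (SE 0.51, adjusted p = 0.0125). Sdf2l1 showed the reverse, with −1.35 fed and 2.26 fasted (difference −3.60, adjusted p = 0.0125), and so did Efna1 (−1.10 and 1.01) and Dnajb11 (−0.76 and 0.72).

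By list, the PPAR-alpha targets had a median of 0.60 in the fed and −0.50 in the fasted MCAD-KO mice. Of 39 tested, 23 had an unadjusted p below 0.05 for a higher diet effect in the fed state, against 4.45% of all genes, and 1, Acot3, was called. The ER list had medians of −0.43 and 0.43, with 12 of 22 genes at such a p for a lower diet effect in the fed state, against 4.76% of all genes, and 3 called, Hsp90b1, Pdia6 and Sdf2l1. In cholesterol synthesis and uptake the medians were −0.07 and 0.62, and 2 genes were called, Stard4 and Insig1. De novo lipogenesis had a median of −0.29 in both states, with single members apart: Srebf1 was at −0.52 fed and 0.98 fasted and Acacb at −0.54 and −1.60. Of its 19 genes, 4 had such a p for a lower and 1 for a higher diet effect in the fed state.

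**Figure D5:**
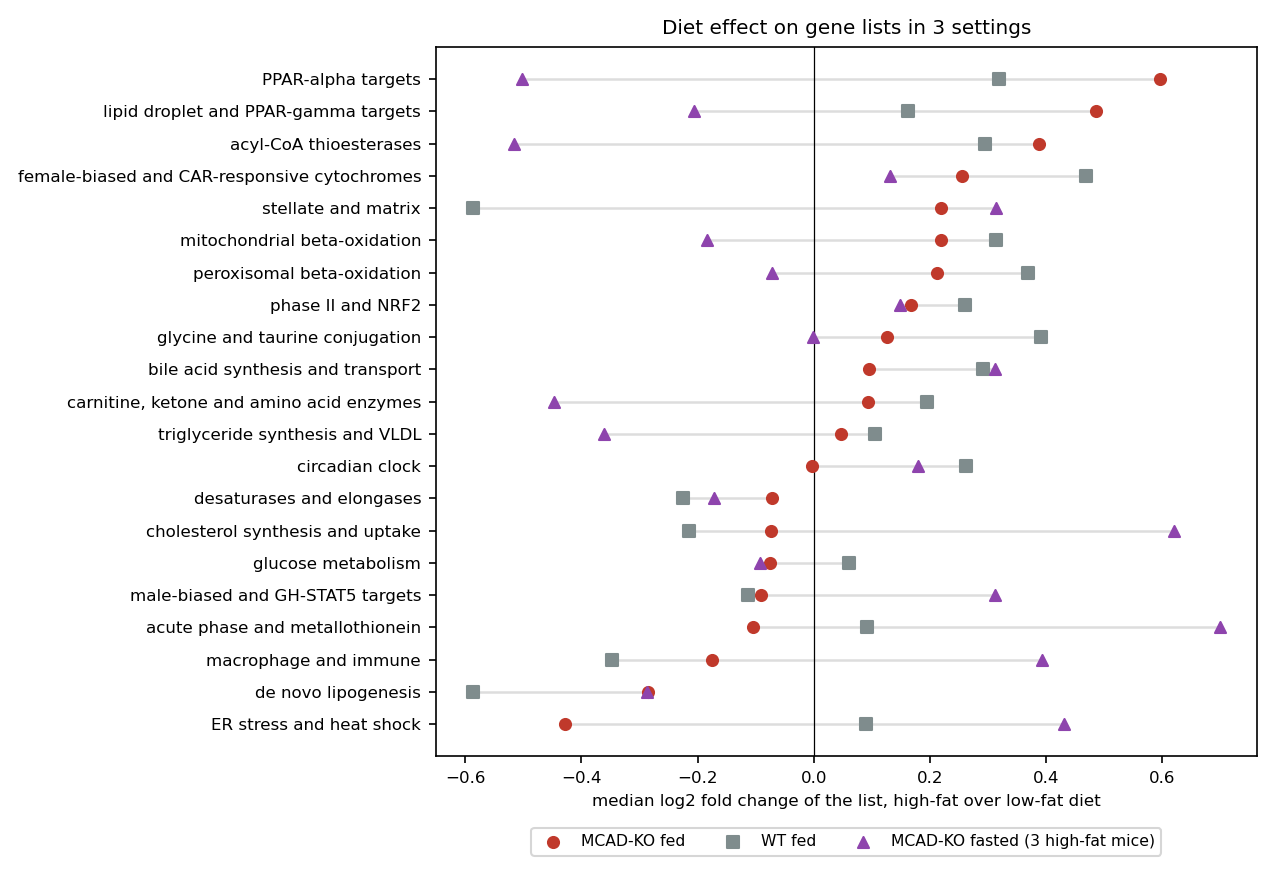
Median log2 fold change, high-fat over low-fat, of 21 gene lists in MCAD-KO fed (red circles), WT fed (grey squares) and MCAD-KO fasted liver (purple triangles, 3 high-fat mice). PPAR-alpha targets lie at 0.60, 0.32 and −0.50 and ER stress and heat shock at −0.43, 0.09 and 0.43 in that order.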

How the data were processed

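Total RNA was taken from the livers of 32 mice, and 3′ tag libraries were sequenced with single 50-base reads. Reads were aligned by the authors with HISAT 0.1.5, handled with SAMtools 1.2 and counted per gene with HTSeq 0.6.1p1 on GRCm38. The authors deposited the counts as whole numbers without normalization. The strand setting and the Ensembl release behind the table are not settled by the sources used here, and tags shared between similar genes are left out of such counts or credited to 1 copy. The 20076 genes of the table were named with GENCODE vM21 for 19918, and the other 158 held 0.115% of the counts.

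Groups came from the labels. The 8 fed MCAD-KO mice were fitted with edgeR 4.0.16 in R 4.3.3 (filterByExpr, TMM, robust quasi-likelihood test), and p-values were adjusted after Benjamini and Hochberg over all 9997 genes, with a threshold of 0.05. The differences to WT fed mice and to fasted MCAD-KO mice were interaction terms in models of 4 groups, the latter without fasted high-fat mouse 4. The diet effects given for WT fed and for fasted MCAD-KO mice came from the same models. Exact permutation tests were two-sided. DESeq2 1.42.0 (adjusted p-values given as missing stayed missing), limma 3.58.1 with voom, other filters and scalings, lane, and single mice left out were alternatives. Same-numbered mice did not deviate together (correlations of 0.01, −0.04, 0.03 and 0.04), so the replicate numbers were not used as pairs. Counts were simulated with the depth and mean levels of these 8 mice and 1 common spread for all genes (10147 genes). There, 17.5% of 97 genes changed 1.5-fold and 58.2% of 98 genes changed 2-fold were recovered, and 2 of 76 calls were false. Genes or mice with a wider spread were not simulated, so these shares do not carry over to the calls made here. At 2292624 to 3221164 counts per mouse, smaller changes can thus be missed.

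The genes named are Acadm, the 12 with the smallest p in each direction, up to 4 called members of each list (or 2 where none was called), the 5 with the smallest p of each difference, and markers of tissues that stood apart. Others are marked as named after their values were seen, and some genes that this rule names are not reported here. The members and lists were chosen with earlier results of these data known. The 2 gene sets of the study came from its supplementary lists. Promoters were RefSeq sequences of GRCm38.p6.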

Additional observations from a re-analysis of the deposited data

Results flagged for a closer look

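Of 208 groups of 4 values examined, for named genes and marker sums, 15 held 1 mouse far from the other 3 by Dixon's test. Chance gives about 1 in 20 groups, so that single cases carry little weight.

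High-fat mouse 1 was far above the other high-fat mice for the summed acinar pancreas markers (2754 CPM against 26.6 to 39.5), the summed skeletal muscle markers (1920 against 1.24 to 47.7), the elastase gene Cela1 (181.1 against 23.2 to 33.2), the muscle filament gene Des (83.4 against 2.32 to 8.29) and Fabp4 (120.1 against 28.5 to 40.2). In low-fat mouse 3 the skeletal muscle sum was 32.9 CPM against 1.01 to 1.95. In low-fat mouse 4 the adipsin gene Cfd was at 9.40 CPM against 1.34 to 1.79, and the B and plasma cell markers summed to 22.7 CPM against 13.8 to 14.6.

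High-fat mouse 4 was low for Acaa1b (1111 CPM against 1313 to 1354) and Mgll (322.5 against 447.0 to 470.3) and high for Apob (658.7 against 545.7 to 556.6). Other mice apart from their group were high-fat mouse 3 for Ces1g (215.0 CPM against 133.0 to 141.8), high-fat mouse 2 for Acot1 (62.1 against 41.2 to 44.3) and low-fat mouse 2 for Rpl3-ps1 (76.8 against 91.2 to 94.0) and Nudt7 (1361 against 909.9 to 981.9).

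The diet effect differed between fed and fasted MCAD-KO mice by the interaction test for 5 genes named by rank. The fed minus fasted difference on the log2 scale was −2.05 for Stard4, −4.60 for Hsd3b5, 1.83 for Mat1a, 1.996 for Por and −1.62 for Nudt7. Their values in each group stand beside the comparison with the fasted mice.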

How the results depend on the processing

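All 92 genes called for diet kept their direction in every alternative in which they were tested, and no value given for a named gene or list changed direction while called. The count of calls was near 92 with RLE size factors, with a 10-count filter, with lane as a term (100) and with the replicate block (100, of which 76 were among the 92). The block changed no list's direction, with medians of 0.59 for PPAR-alpha targets and −0.43 for the ER list, and gave 30 calls for the fed and fasted difference. DESeq2 called 160 genes, which held all 92, limma voom 37 and the fit without a filter on low counts 259. Within lane 7 there were 56 calls and within lane 8 there was 1, each with 2 mice per diet. A model of all 8 groups called 1 gene. Alternatives added after seeing the data called 12 (model of the 4 fed groups) and 32 (without high-fat mouse 1 and low-fat mouse 2). In that same model of the 4 fed groups, the WT comparison had 13 calls. Leaving out 1 mouse gave 15 to 112 calls, the lowest without high-fat mouse 3 and 18, 25, 31 and 54 without low-fat mouse 1, high-fat mice 2 and 1 and low-fat mouse 2. The lipid droplet median of 0.49 became 0.76 without a filter, 0.82 within lane 7 and 0.72 in the model of all 8 groups, and 0.35 to 0.77 with 1 mouse left out. The peroxisomal median of 0.21 became 0.34 within lane 7. The 33 genes of the fed and fasted difference became 156 with DESeq2, 55 without a filter, 0 with fasted high-fat mouse 4, and 15 to 80 with 1 mouse left out, with 15, 19 and 18 without fasted high-fat mice 1 and 3 and fed high-fat mouse 2, and 66 and 80 without fasted low-fat mice 3 and 1. The MCAD-KO and WT difference had 0 calls throughout. The cause of these shifts was not tested. Depth limited genes of low level, such as Cidec and Acot3, which were not tested.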
